A study of Mus with 15 samples.

Results

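E proteins are helix-loop-helix transcription factors that bind E-box sites in DNA as dimers, and ID proteins are their inhibitors. An ID protein has no DNA-binding basic region and holds an E protein in a dimer that cannot bind DNA. In the thymus, E proteins act at the recombinase and pre-T cell receptor genes of immature thymocytes, and signals from the T cell receptor raise Id3 through EGR factors. The genes described here are 4 of the 55573 genes in the count table: the inhibitors Id2 and Id3 and the E protein genes Tcf3 and Tcf12, which encodes HEB. They were taken by symbol, whatever their values, and each was tested in every comparison.

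Total RNA was sequenced with a stranded kit from thymocytes of 6-week-old female C57Bl/6 x Foxp3-GFP mice, in which green fluorescent protein reports Foxp3. All gates were CD73-negative, TCRb+ CD4+ CD8- live cells, sorted after CD8-bearing cells had been removed with magnets. Each of the 5 gates gave 3 libraries, numbered 40, 42 and 43, which the labels call biological replicates of 1 sort. Conventional CD4 single-positive (CD4SP) cells were Bst2-, CD25- and Foxp3-. CD25+ progenitors of regulatory T cells (Tregs) were Bst2-, CD25+ and Foxp3-, and FOXP3lo progenitors were Bst2-, CD25- and Foxp3lo. Mature Tregs were Bst2-, CD25+ and Foxp3+. The last gate held Bst2+ cells that were CD25+, Foxp3+ or both, so it is a mixture by its definition. The labels do not say whether a replicate was 1 mouse or a pool, so p-values measure the spread between these samples.

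Library totals ran from 10816064 to 23758157 counted read pairs. Levels are given as CPM, read pairs per 1000000 after scaling of the libraries, and genes are compared with each other as CPM per kb of annotated exon. Foxp3 was at 0.52 to 1.56 CPM in conventional cells and 1.82 to 4.19 in CD25+ progenitors. It was at 531.5 to 647.5 CPM in mature Tregs and 271.4 to 300.8 in FOXP3lo progenitors. In the Bst2+ libraries Foxp3 was at 9.07 to 39.9 CPM, and Bst2 itself was at 15.6 to 50.1 CPM against 11.2 to 18.2 in the other gates, so the ranges of Bst2 overlapped. All 6 listed markers of CD4SP T cells had counts in every gate, but all 6 were called lower in CD25+ progenitors and in mature Tregs than in conventional cells, with mean sums of 1971 and 1811 against 2814 CPM. In FOXP3lo progenitors Cd3g, Cd4, Trbc1 and Zbtb7b were called lower, and the mean sum was 2391 CPM. The Bst2+ libraries differed more among themselves: the common biological coefficient of variation was 0.917 there and 0.148 to 0.236 in the other gates. The 4 Bst2-negative gates were therefore fitted by themselves, over 12 libraries, and comparisons with the Bst2+ gate were fitted over all 15. A gene was called different at an adjusted p under 0.05 over all genes tested.

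Among the Bst2-negative gates the inhibitor Id2 fell stepwise from conventional cells to mature Tregs, over a 15.1-fold range. Id3 moved over a 1.97-fold range and in another order, lowest in CD25+ progenitors and highest in the gates with FOXP3. Tcf3 was raised in CD25+ progenitors alone of the 4 gates, by 1.33-fold to 1.37-fold over each of the others. Tcf12 varied by 1.22-fold at most. Of the 6 pairs of Bst2-negative gates, Id2 was called different in 6, Id3 in 5, Tcf3 in 3 and Tcf12 in 1.

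**Figure D1:**
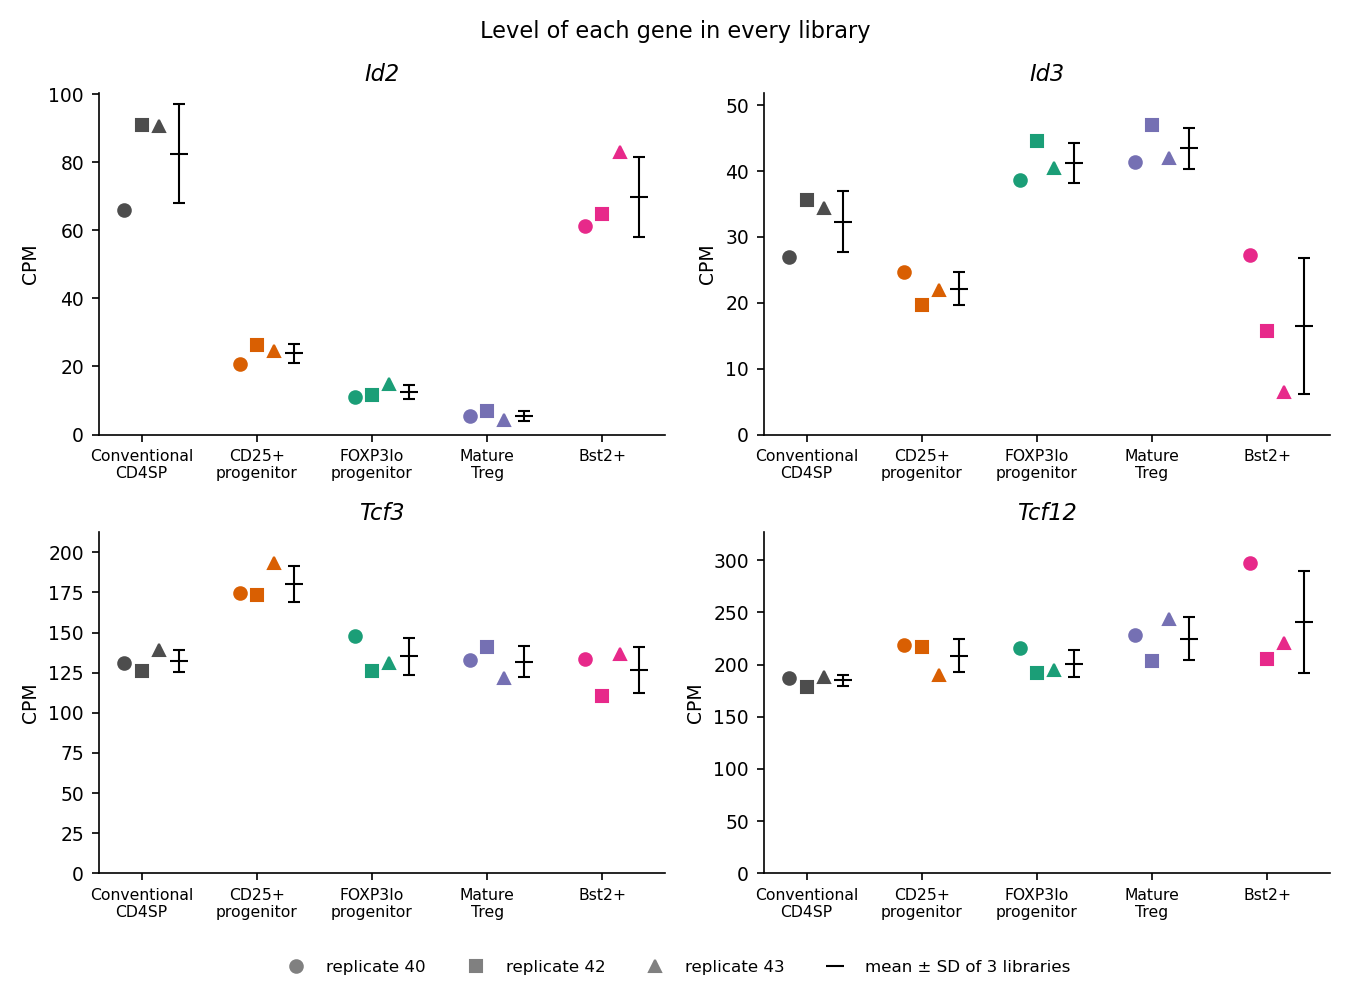
Level of Id2, Id3, Tcf3 and Tcf12 in CPM (vertical axes, starting at 0) in each library of the 5 gates; symbols mark the replicate number and the black bar the mean ± SD of 3 libraries. The Id2 points of the 4 Bst2-negative gates do not overlap, the Tcf3 points of CD25+ progenitors lie above every other library, and the Bst2+ points of Id3 run from 6.52 to 27.2 CPM.

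Id2 (ENSMUSG00000020644; GRCm38, chromosome 12, 25093799 to 25097140, minus strand) was at 65.9, 91.1 and 90.8 CPM in conventional replicates 40, 42 and 43. In CD25+ progenitors it was at 20.8, 26.3 and 24.7 CPM. In FOXP3lo progenitors it was at 10.9, 11.5 and 14.8 CPM. The 3 sets of libraries do not overlap, and replicate 40 is the lowest in each. Mature Tregs had 5.41, 6.84 and 4.14 CPM, below every library of the other gates, on 228 counts in all.

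The mean of Id2 was 82.6 ± 14.5 CPM (SD, n = 3) in conventional cells, 5.46 ± 1.35 in mature Tregs and, among progenitors, 23.9 ± 2.81 in the CD25+ and 12.4 ± 2.08 in the FOXP3lo gate. Against conventional cells, the log2 fold change was -1.78 ± 0.15 (SE) in CD25+ progenitors, with an adjusted p of 1.224e-12. It was -2.73 ± 0.16 in FOXP3lo progenitors (adjusted p = 2.446e-17) and -3.92 ± 0.18 in mature Tregs (adjusted p = 2.011e-21). Its p ranked 252, 56 and 71 of 15648 genes in these comparisons, so Id2 was among the genes with the smallest p in each. The progenitor gates differed as well: Id2 was 1.93-fold higher in CD25+ than in FOXP3lo progenitors (log2 0.95 ± 0.16, adjusted p = 4.339e-06). Mature Tregs had 4.39-fold less Id2 than CD25+ progenitors (adjusted p = 4.84e-13) and 2.28-fold less than FOXP3lo progenitors (adjusted p = 2.836e-06). In bulk libraries, fewer cells with Id2 RNA and less Id2 RNA per cell cannot be told apart. Each of these 6 calls was also made without any 1 library and under every other setting tried.

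Id3 (ENSMUSG00000007872; chromosome 4, 136143497 to 136145755, plus strand) was at 27.0, 35.6 and 34.4 CPM in conventional replicates 40, 42 and 43. CD25+ progenitors had 24.7, 19.7 and 21.9 CPM, all below the conventional libraries. FOXP3lo progenitors had 38.7, 44.5 and 40.4 CPM, and mature Tregs 41.4, 47.1 and 42.0. These last gates overlapped each other, and all 6 of their libraries lay above the conventional ones.

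The mean of Id3 was 32.3 ± 4.66 CPM (SD, n = 3) in conventional cells, 43.5 ± 3.12 in mature Tregs and, among progenitors, 22.1 ± 2.52 in the CD25+ and 41.2 ± 3.01 in the FOXP3lo gate. Id3 fell in CD25+ progenitors by 0.54 ± 0.13 on the log2 scale against conventional cells (adjusted p = 0.00116). It rose in FOXP3lo progenitors, by a log2 fold change of 0.36 ± 0.13 (adjusted p = 0.0367), and in mature Tregs, by 0.43 ± 0.13 (adjusted p = 0.00828). The clearest contrast of Id3 was with the CD25+ progenitors: 1.86-fold lower than in FOXP3lo progenitors (adjusted p = 3.104e-07) and 1.97-fold higher in mature Tregs (adjusted p = 9.703e-08). Mature Tregs and FOXP3lo progenitors differed by a log2 of 0.08 (95% interval -0.18 to 0.34, adjusted p = 0.764). All 5 Id3 calls were lost when the Bst2+ libraries shared the fit, with adjusted p from 0.0535 to 0.707. The call of FOXP3lo progenitors against conventional cells was also lost without conventional replicate 40 (log2 0.24), FOXP3lo replicate 42 (0.30) or FOXP3lo replicate 43 (0.37). That of mature Tregs against conventional cells was lost without conventional replicate 40 (log2 0.31, adjusted p = 0.0953).

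The E protein gene Tcf3 (ENSMUSG00000020167; chromosome 10, 80409514 to 80433647, minus strand) was at 131.3, 125.8 and 139.4 CPM in conventional replicates 40, 42 and 43. CD25+ progenitors had 174.7, 173.2 and 193.2 CPM, above all other libraries. FOXP3lo progenitors had 147.9, 126.1 and 131.3 CPM, and mature Tregs 132.9, 141.2 and 121.7, both overlapping the conventional range.

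The mean of Tcf3 was 180.4 ± 11.1 CPM (SD, n = 3) in CD25+ progenitors against 132.2 ± 6.86 in conventional cells. The log2 fold change was 0.45 ± 0.08 against conventional cells (adjusted p = 1.191e-05), and 0.42 ± 0.08 against FOXP3lo progenitors (adjusted p = 2.562e-05). Tcf3 fell by 0.45 ± 0.08 on the log2 scale in mature Tregs against CD25+ progenitors (adjusted p = 1.11e-05). The 3 remaining gates had means of 132.0 to 135.1 CPM, and none of their pairs was called. The 95% intervals of those 3 pairs lay between -0.19 and 0.19 on the log2 scale. The 6 listed markers of CD8 and double-positive thymocytes summed highest in CD25+ progenitors among these gates, at 154.7 to 201.8 CPM against 19.9 to 89.3. Most of that sum was Rag1 and Dntt, at 57.8 and 76.4 CPM. Against conventional cells the CD8 genes did not move with them: Cd8b1 was called lower, at 20.6 against 27.8 CPM, and Cd8a was not called, at 17.7 against 16.7 CPM. Against FOXP3lo progenitors, at 2.46 CPM of Cd8a and 12.8 of Cd8b1, both were called higher. Cd8a was also called higher than in mature Tregs, at 7.33 CPM there, and Cd8b1 was not.

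Tcf12 (ENSMUSG00000032228; chromosome 9, 71842688 to 72111871, minus strand) was at 187.4, 178.7 and 188.3 CPM in conventional replicates 40, 42 and 43. CD25+ progenitors had 218.7, 216.7 and 190.5 CPM, and FOXP3lo progenitors 215.8, 192.3 and 195.1. Mature Tregs had 228.1, 203.1 and 243.6 CPM. Every library of the other 3 gates was above the conventional ones, but by small margins. Only mature Tregs against conventional cells was called, at a log2 fold change of 0.28 ± 0.07 (adjusted p = 0.00275), and that call was lost when all 15 libraries were fitted (adjusted p = 0.157). CD25+ progenitors differed from conventional cells by a log2 of 0.17 (95% interval 0.02 to 0.32, adjusted p = 0.0762), which was called without CD25+ replicate 43 (adjusted p = 0.022). The table also lists 7 gene models on the same strand within the span of Tcf12, at 42.3 to 47.5 CPM in sum in the Bst2-negative gates, and none of the 7 was called in these pairs.

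**Figure D2:**
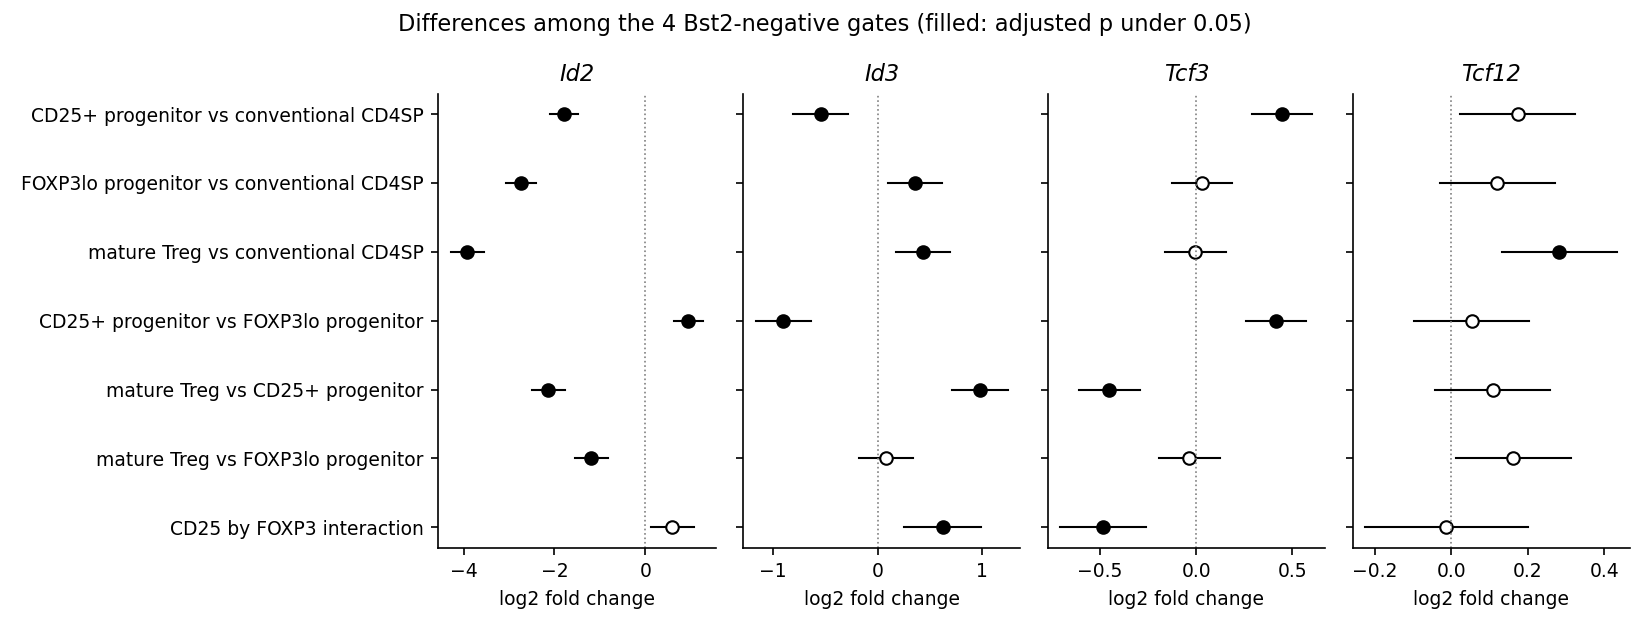
Log2 fold change (horizontal axes, a separate scale for each gene) of Id2, Id3, Tcf3 and Tcf12 in 6 pairs of Bst2-negative gates and in the CD25-by-FOXP3 interaction, with 95% intervals; filled points have an adjusted p under 0.05. Id2 is filled in all 6 pairs, and the Id3 and Tcf3 intervals lie on opposite sides of 0 in the 3 pairs that involve CD25+ progenitors.

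The counts of called members can be read against all genes. In CD25+ progenitors against conventional cells 3 of 4 members were called, beside 29% of the 15648 genes tested (14.7% higher, 14.3% lower). In FOXP3lo progenitors against conventional cells 2 were called, beside 25.1% (12.8% higher, 12.3% lower). In mature Tregs against conventional cells 3 were called, beside 30.4% (15.1% higher, 15.3% lower). The libraries of all 4 members stood apart in CD25+ progenitors, beside 41% of genes. Those of 3 members stood apart in FOXP3lo progenitors, beside 39.5%, and of 3 in mature Tregs, beside 40.2%. Between CD25+ and FOXP3lo progenitors 3 were called, beside 39.6%. In mature Tregs 3 were called against CD25+ progenitors, beside 32.7%, and 1 against FOXP3lo progenitors, beside 18.7%. With 4 members, these counts say little by themselves.

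The 4 gates cross CD25 with FOXP3 by definition. The CD25 difference without FOXP3 (CD25+ progenitors less conventional cells) can be set against that with FOXP3 (mature Tregs less FOXP3lo progenitors). The levels are not matched. Il2ra, the CD25 gene, had means of 9.06 CPM in conventional cells and 288.5 in CD25+ progenitors. It had 107.1 in FOXP3lo progenitors and 1150 in mature Tregs, where Foxp3 also went from 289.7 to 597.4. The interaction cannot be told apart from these differences in level. For Id3 the CD25 differences were -0.54 and 0.08 on the log2 scale, and their difference was 0.62 ± 0.18 (adjusted p = 0.02). For Tcf3 they were 0.45 and -0.03, with a difference of -0.48 ± 0.11 (adjusted p = 0.00183). Both genes were called, 2 of 4 members beside 10.9% of all genes. Id2 had 0.60 ± 0.24 (adjusted p = 0.11) and Tcf12 -0.01 ± 0.11 (adjusted p = 0.975). The Id3 interaction was lost without FOXP3lo replicate 40, conventional replicate 42 or 43, CD25+ replicate 42 or mature replicate 42 (adjusted p 0.058 to 0.0727). Id2 passed without conventional replicate 40, FOXP3lo replicate 43 or mature replicate 43 (adjusted p 0.0324 to 0.0481). With all 15 libraries fitted none was called, at 0.123 for Tcf3 and 0.896 for Id3.

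Per length, both the sum of the inhibitor RNA and its make-up differed between gates. Id2 and Id3 together were at 51.9 ± 8.53 CPM per kb (SD, n = 3) in conventional cells, 26.5 ± 2.23 in mature Tregs and, among progenitors, 22.2 ± 0.34 in the CD25+ and 28.1 ± 1.82 in the FOXP3lo gate. The Id2 share of that sum was 65.2% ± 0.91 in conventional cells, 8.38% ± 1.48 in mature Tregs and, among progenitors, 44.3% ± 5.7 in the CD25+ and 18.1% ± 2.74 in the FOXP3lo gate. The libraries of these 4 gates did not overlap in that share. Tcf3 and Tcf12 together were at 44.6 ± 2.0 CPM per kb in conventional cells, 47.2 ± 1.18 in mature Tregs and, among progenitors, 58.1 ± 1.75 in the CD25+ and 46.4 ± 3.64 in the FOXP3lo gate.

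The ratio of inhibitor to E protein RNA, per kb, was 0.944, 1.34 and 1.21 in conventional replicates 40, 42 and 43. It was lowest in CD25+ progenitors, at 0.390, 0.383 and 0.372. FOXP3lo progenitors had 0.516, 0.678 and 0.635, and mature Tregs 0.532, 0.606 and 0.549, which overlap. These are ratios of RNA, not of protein. Tcf12 has 15529 bases of annotated exon, many transcripts merged, against 4039 for Tcf3, 2438 for Id2 and 1791 for Id3. A shorter true length would raise the level of Tcf12 per kb and lower the ratio in every gate, by amounts that differ between gates, since Tcf3 over Tcf12 per kb had means of 3.35 in CD25+ progenitors and 2.28 in mature Tregs.

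**Figure D3:**
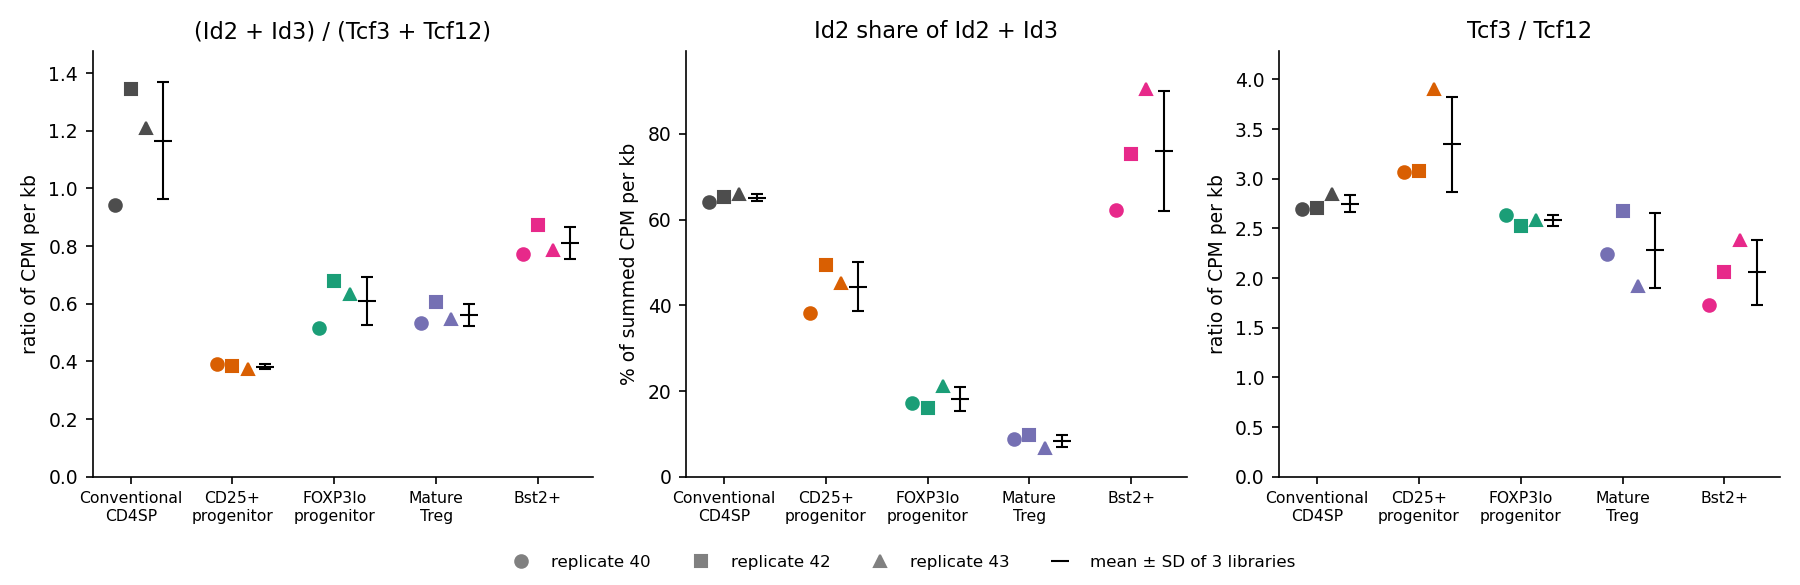
Per library, the ratio of summed Id2 and Id3 to summed Tcf3 and Tcf12 (left), the share of Id2 in the inhibitor sum in % (middle) and the ratio of Tcf3 to Tcf12 (right), all from CPM per kb; symbols mark replicates and bars the mean ± SD of 3 libraries. The left ratio is lowest in CD25+ progenitors, at 0.382 ± 0.009, and the Id2 share steps down from 65.2% in conventional cells to 8.38% in mature Tregs.

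Among 11501 protein-coding genes ranked per length, Id2 stood at percentile 92.4 in conventional cells and at 31.8 in mature Tregs, with 66.2 in CD25+ and 48.8 in FOXP3lo progenitors between them. Tcf3 stayed between percentile 91.0 and 94.8 over all 5 gates, and Tcf12 between 72.04 and 78.3. Id3 was lowest in Bst2+ cells, at percentile 64.85, and stood at 72.7 in CD25+ progenitors and 87.3 in mature Tregs.

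In the Bst2+ gate Id2 was at 61.2, 64.9 and 83.2 CPM in replicates 40, 42 and 43, within or just below the conventional range and above every library of the 3 Treg-lineage gates. Its log2 fold change was 1.54 ± 0.20 against CD25+ progenitors (adjusted p = 5.084e-05), 2.49 ± 0.21 against FOXP3lo progenitors (adjusted p = 1.674e-07) and 3.68 ± 0.23 against mature Tregs (adjusted p = 6.838e-09). Against conventional cells it was -0.24 (95% interval -0.66 to 0.17, adjusted p = 0.389). The higher Id2 was called under every alternative and without any 1 library.

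Id3 spread widely among the Bst2+ libraries, at 27.2, 15.7 and 6.52 CPM in replicates 40, 42 and 43, a coefficient of variation of 62.9% against 7.18% to 14.4% elsewhere. Replicate 40 lay within the conventional range, and replicates 42 and 43 below every conventional library. The log2 fold change was -0.98 ± 0.32 against conventional cells (adjusted p = 0.0307), -1.33 ± 0.32 against FOXP3lo progenitors (adjusted p = 0.00385) and -1.41 ± 0.33 against mature Tregs (adjusted p = 0.0032). All 3 were lost with only the compared gates fitted (adjusted p = 0.246, 0.0834 and 0.0738). The first was also lost without conventional replicate 42 or 43 or Bst2+ replicate 42 (adjusted p 0.0551 to 0.0926). Against CD25+ progenitors the difference was -0.44 (adjusted p = 0.355), and without Bst2+ replicate 40 it was -1.01 (adjusted p = 0.00772).

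Tcf3 was at 133.6, 110.3 and 136.7 CPM in Bst2+ replicates 40, 42 and 43, below CD25+ progenitors (log2 -0.51 ± 0.10, adjusted p = 0.00212). That call was lost with a weight for each gate (adjusted p = 0.0573) or with only those gates fitted (adjusted p = 0.0606). Tcf12 was at 297.2, 205.5 and 220.4 CPM, above all conventional libraries (log2 0.38 ± 0.12, adjusted p = 0.0238). The latter call was lost without Bst2+ replicate 40 (log2 0.20, adjusted p = 0.0963) and without any of the 3 conventional libraries (adjusted p 0.0586 to 0.0806). It was also lost with the gate weights (adjusted p = 0.143) and with only those gates fitted (adjusted p = 0.164).

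Members called in the Bst2+ gate numbered 2 against conventional cells beside 29.1% of 16069 genes, and 2 against CD25+ progenitors beside 24.2%. They numbered 2 against FOXP3lo progenitors beside 38.2%, and 2 against mature Tregs beside 32.8%. Against the mean of the 3 Treg-lineage gates, Id2 was higher by 2.57 ± 0.15 and Id3 lower by a log2 of -1.06 ± 0.28, 2 members beside 39.1%. Several listed markers of other cells had higher sums in the Bst2+ libraries. Their 7 macrophage and dendritic cell markers summed to 413.2 to 690.6 CPM against 12.9 to 29.7 in the other gates. The 6 markers of CD8 and double-positive thymocytes summed to 753.6 to 1289 CPM against 19.9 to 201.8, most of it Rag1 and Dntt, with means of 395.2 and 501.8. The CD8 genes Cd8a and Cd8b1, at means of 21.4 and 25.9 CPM, were not called against conventional cells or CD25+ progenitors. Both were called higher than in FOXP3lo progenitors, at 2.46 and 12.8 CPM there. Against mature Tregs Cd8a was called higher and Cd8b1 was not called. The 5 matched gamma-delta T cell markers summed to 87.0 to 245.3 CPM against 10.4 to 38.7, and Il23r was at 0 in the Bst2+ libraries. Among the Bst2-negative gates that sum was highest in CD25+ progenitors, at 35.3 to 38.7 CPM against 10.4 to 22.9. Trgc1 and Trgc2 were called higher there than in conventional cells, and Trdc and Sox13 were not called. The 6 B cell markers summed to 3.53 to 20.3 CPM against 0.579 to 2.83. The 6 matched markers of NKT and innate-like T cells summed to 8.22 to 23.7 CPM in the Bst2+ libraries. That overlaps CD25+ progenitors, at 7.21 to 8.94, and mature Tregs, at 7.54 to 12.4. Conventional cells, at 0.463 to 1.04, and FOXP3lo progenitors, at 0.345 to 1.59, lay below. Among these markers Ccl5 and Nkg7 were called higher in Bst2+ cells than in conventional cells and FOXP3lo progenitors. Tbx21 was at 0 in the Bst2+ libraries and was called lower than in CD25+ progenitors and mature Tregs. The part of these cells in the Bst2+ values was not tested.

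Ordered by mean, Id2 ran from conventional cells over Bst2+ cells, CD25+ progenitors and FOXP3lo progenitors to mature Tregs, and only the first neighbours, at an adjusted p of 0.389, were not called different. For Id3 the order was mature Tregs, FOXP3lo progenitors, conventional cells, CD25+ progenitors and Bst2+ cells, with the first and the last neighbours not called different. For Tcf3 only the step from CD25+ to FOXP3lo progenitors was called. For Tcf12 no neighbours were.

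The E and ID family has 3 further genes in the table. Tcf4, the third E protein gene, was at 17.3 ± 3.85 CPM (SD, n = 3) in conventional cells and 16.2 ± 0.93 in FOXP3lo progenitors, and at 30.1 ± 4.97 in CD25+ progenitors and 31.1 ± 2.8 in mature Tregs. It rose against conventional cells in both CD25+ gates (log2 0.78 ± 0.16, adjusted p = 0.000167, and 0.83 ± 0.16, adjusted p = 7.687e-05). In Bst2+ cells Tcf4 was at 65.7 ± 14.8 CPM, higher than in each other gate (log2 1.08 to 2.02, adjusted p at most 0.000822). Tcf4 is also abundant in plasmacytoid dendritic cells. Of the 5 other listed markers of those cells, Ly6d and Irf8 were called higher in Bst2+ cells than in conventional cells. This was not particular to Bst2+ cells: Ly6d and Irf8 were called higher in both CD25+ gates too, where Tcf4 also rose. FOXP3lo progenitors had only Irf8 called higher, and Ccr9 was called lower in CD25+ progenitors. The part of such cells in the Tcf4 values was not tested. Irf8 was at 33.5 CPM in Bst2+ cells and 35.3 in mature Tregs, and Ccr9 was called in no Bst2+ comparison. Siglech and Spib were near 0 in Bst2+ cells, at 0.48 and 0.14 CPM. The inhibitor gene Id1 had 6 counts in conventional cells and 62 in CD25+ progenitors (log2 3.23 ± 1.22, adjusted p = 0.0412), a mean of 1.16 CPM there. The Id1 counts of CD25+ replicates 40, 42 and 43 were 25, 6 and 31, and replicate 42, at 0.303 CPM, was at the level of conventional replicate 42, at 0.297 CPM. The 2 other libraries held most of the Id1 counts. Id4 had 11 counts in conventional cells, 4 in FOXP3lo progenitors and 0 in the other gates, and was not tested.

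Of 15 listed genes reported as E protein targets, 8 were higher and 4 lower in CD25+ progenitors than in conventional cells, beside 14.7% and 14.3% of all genes. Their median log2 fold change was 1.61, against -0.01 over all genes. The targets called higher were the recombinase genes Rag1 and Rag2, the pre-receptor gene Ptcra, Dntt, Gfi1, Hes1, Cxcr5 and Cdkn1a. Those called lower were Cd4, Notch1, Il7r and Socs3. Of the genes called higher, Ptcra and Cdkn1a had 1 count each in conventional cells, Cxcr5 14, Hes1 16 and Rag2 20. The sizes of their fold changes are therefore loosely set. Whether E proteins acted on any of these genes here was not tested. Dntt, which adds bases at receptor junctions, went from 25.1 ± 3.86 CPM (SD, n = 3) to 76.4 ± 14.7, and the repressor gene Gfi1 from 12.5 ± 1.75 to 49.1 ± 3.87. Cxcr5, a chemokine receptor gene, went from 0.27 ± 0.26 to 6.45 ± 2.16 CPM. Rag1, Rag2, Ptcra and Dntt are also 4 of the 6 listed markers of CD8 and double-positive thymocytes. The 2 other markers were the CD8 genes given above, of which Cd8b1 was lower in CD25+ progenitors than in conventional cells and Cd8a was not called.

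In FOXP3lo progenitors 4 of the 15 targets were higher than in conventional cells (Gfi1, Foxo1, Cxcr4 and Cxcr5) and 4 lower (Dntt, Cd4, Hes1 and Il7r), with a median of -0.04. In mature Tregs 5 were higher (the same 4 and Socs1) and 5 lower (Dntt, Cd4, Notch1, Hes1 and Il7r), with a median of 0.50. Of all genes, 12.8% were higher and 12.3% lower in FOXP3lo progenitors, and 15.1% and 15.3% in mature Tregs. Dntt fell by 2.44 ± 0.21 on the log2 scale in FOXP3lo progenitors (adjusted p = 2.443e-11), opposite to its direction in CD25+ progenitors. Foxo1, a forkhead factor gene, rose by a log2 of 0.92 ± 0.06 in FOXP3lo progenitors and 0.61 ± 0.06 in mature Tregs. Gfi1 rose in all 3 gates, and Il7r, the interleukin-7 receptor gene, fell in all 3. The double-positive marker sum was 19.9 to 24.0 CPM in FOXP3lo progenitors and 35.8 to 42.0 in mature Tregs. Hes1 had 16 counts in conventional replicate 40 alone and none in either FOXP3 gate, so its fitted fold change there is no bound.

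Of 13 genes listed for the signals that act on ID genes, 4 were higher and 7 lower in CD25+ progenitors than in conventional cells. In FOXP3lo progenitors 8 were higher and 1 lower, and in mature Tregs 5 higher and 6 lower. Over all genes, 29%, 25.1% and 30.4% were called in these 3 comparisons. Egr1, Egr2 and Egr3, antigen-response factor genes that act on Id3, fell by 0.76 ± 0.08, 0.62 ± 0.13 and 0.77 ± 0.13 on the log2 scale in CD25+ progenitors. Egr1 was at 165.6 ± 14.4 CPM (SD, n = 3) in conventional cells, 119.0 ± 6.15 in mature Tregs and, among progenitors, 97.8 ± 5.47 in the CD25+ and 164.9 ± 15.5 in the FOXP3lo gate. In mature Tregs Egr1 was lower than in conventional cells (log2 -0.48 ± 0.08, adjusted p = 7.346e-06), and Egr2 and Egr3 were called lower too. In FOXP3lo progenitors Egr3 was called higher, and Egr1 and Egr2 were not called. Nab2, which encodes a repressor of EGR proteins, fell in all 3 gates, by 0.94, 0.70 and 0.97 on the log2 scale. Smad7, an inhibitor gene of TGF-beta signalling, was at 125.7 ± 12.2 CPM in conventional cells, 221.1 ± 11.4 in mature Tregs and, among progenitors, 73.0 in the CD25+ and 230.2 ± 9.12 in the FOXP3lo gate, an order of gates close to that of Id3. The receptor genes Tgfbr1 and Bmpr2 and the interleukin-2 signal genes Stat5a and Stat5b rose in all 3 gates. Whether any of these genes acted on Id2 or Id3 here was not tested.

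**Figure D4:**
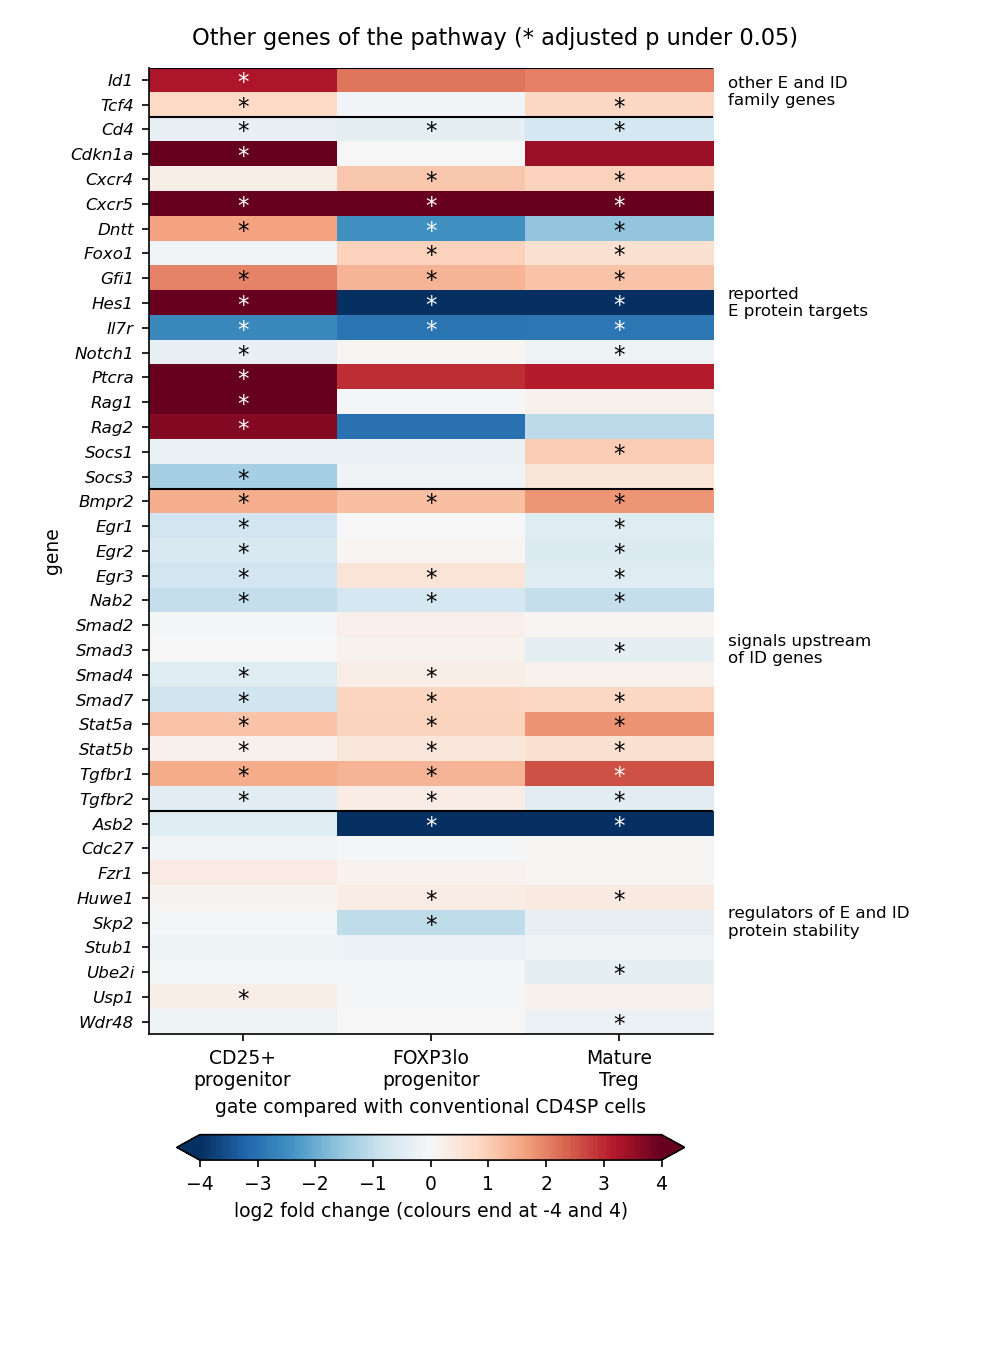
Log2 fold change against conventional cells (colour, ending at -4 and 4) for the tested genes of 4 lists (rows) in the 3 other Bst2-negative gates (columns, as labelled); an asterisk marks an adjusted p under 0.05. In CD25+ progenitors 8 of the 15 E protein targets are called higher, against 4 in FOXP3lo progenitors and 5 in mature Tregs. Of all genes, 14.7%, 12.8% and 15.1% are called higher in these gates. Asb2 is called lower in both gates with FOXP3.

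Of 9 genes listed as regulators of E and ID protein stability, 1 was higher and 0 lower in CD25+ progenitors, 1 higher and 2 lower in FOXP3lo progenitors, and 1 higher and 3 lower in mature Tregs. The shares called over all genes were 29%, 25.1% and 30.4%, so these counts say little by themselves. Asb2, part of a ubiquitin ligase that acts on E proteins, was at 15.6 ± 2.65 CPM (SD, n = 3) in conventional cells, 0.19 ± 0.27 in mature Tregs and, among progenitors, 11.2 ± 4.26 in the CD25+ and 0.80 ± 0.19 in the FOXP3lo gate. Its log2 fold change was -4.27 ± 0.38 in FOXP3lo progenitors (adjusted p = 5.535e-12) and -6.47 ± 0.49 in mature Tregs (adjusted p = 2.796e-14), the latter on 7 counts. In CD25+ progenitors it was -0.47 ± 0.30 (adjusted p = 0.272). Huwe1, another ligase gene, rose by a log2 of 0.30 and 0.35 in the gates with FOXP3, and Usp1, which encodes a deubiquitinase that stabilises ID proteins, rose by 0.27 in CD25+ progenitors.

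Of 13 listed partners and cofactors of E proteins 7 were tested. Against conventional cells 2 were higher and 1 lower in CD25+ progenitors, 4 higher and 0 lower in FOXP3lo progenitors, and 3 higher and 1 lower in mature Tregs. The corepressor gene Cbfa2t2 rose in all 3 gates (log2 0.41, 0.55 and 0.67). The adaptor gene Ldb1 fell by 0.56 ± 0.07 in CD25+ progenitors and by 0.38 ± 0.07 in mature Tregs. Cbfa2t3 was called higher in CD25+ progenitors alone of the 3 gates. It was at 6.09 ± 1.68 CPM (SD, n = 3) there, against 0.59 ± 0.28 in conventional cells, and at 24.8 ± 15.4 in Bst2+ cells. Of 11 tested lineage factor genes, 4, 3 and 6 were higher and 5, 4 and 4 lower in the 3 gates. Both lists stand beside 29%, 25.1% and 30.4% of all genes called. Bcl6, a repressor gene of follicular helper cells, was at 28.1 ± 4.38 CPM (SD, n = 3) in conventional cells, 84.0 ± 9.8 in CD25+ progenitors and 89.5 ± 8.51 in FOXP3lo progenitors, and at 37.7 ± 5.51 in mature Tregs. Zbtb7b, which directs cells to the CD4 lineage, fell in all 3 gates, by 0.86, 0.49 and 0.81 on the log2 scale.

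Genes whose log2 CPM followed each member most closely over the 12 Bst2-negative libraries were sought among 8712 named genes. These libraries fall into 4 gates, so a high Pearson r mainly says that the gate means run in parallel. For Id2 the closest were Srsf6 (r = 0.989), Ivns1abp (0.975), Dlg4 (0.975), Gsn (0.973) and Acvrl1 (0.972). Acvrl1, a TGF-beta family receptor gene, was at 90.5 CPM in conventional cells, 30.3 and 20.98 in the CD25+ and FOXP3lo progenitors and 8.21 in mature Tregs. For Id3 they were Gimap7 (0.962), Trib2 (0.960), Tpt1 (0.959), Enox2 (0.952) and Phf11b (0.944). For Tcf3 they were Sf3a2 (0.950), Eif4g2 (0.945), Slc9b2 (0.945), Isoc2a (0.943) and Kdm6b (0.940), and for Tcf12 they were Hibadh (0.965), Cbx6 (0.908), Orai1 (0.882), Rock2 (0.860) and Fam53b (0.853). Among the members themselves r was -0.79 for Id3 with Tcf3, -0.76 for Id2 with Tcf12 and -0.49 for Id2 with Id3, over the same 12 libraries.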

How the data were processed

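Per the file headers, the deposited table holds raw counts of read pairs per gene: featureCounts 1.6.2 counted pairs with both ends mapped, at a mapping quality of at least 10 and strand setting 2, against Ensembl 97 genes (GRCm38). Per the submitters' processing notes, Trimmomatic 0.33, HISAT2 2.1.0, Subread and featureCounts 1.4.6 were used, another version of the counter than the header gives. The sources used here name no molecular identifiers, so intervals cover counting and sample spread only. The table has no symbols: 35851 of 55573 genes, the 4 members included, were named by overlap with RefSeq genes of GRCm38.p6.

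Counts were tested with edgeR 4.0.16 (quasi-likelihood, robust; R 4.3.3), TMM factors over 15 libraries, the filterByExpr filter and Benjamini-Hochberg adjustment over all genes tested (15648 in the fit of 12 libraries, 16069 in that of 15). The test was checked on simulated data with the same spread in every library, so that check does not cover the wider spread of the Bst2+ libraries. The shared spread of the fit of 15 libraries lies below that of the Bst2+ libraries, so p-values of Bst2+ comparisons may be too small. limma 3.58.1 and DESeq2 1.42.0 were alternatives. Intervals are 95%. Named genes are the members, the other E and ID family genes, up to 3 called genes per list and comparison with the smallest adjusted p, and the 5 genes most alike to each member with a mean of at least 5 CPM. Other genes named in counts were chosen after their values were seen. The members and lists were chosen with earlier results of these data known. Of 65 listed pathway genes 65 were matched, and 42 of 45 markers; 1 listed gene is not reported here.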

Additional observations from a re-analysis of the deposited data

Results flagged for a closer look

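The CD25 difference of Id3 was not the same in the gates with FOXP3, which also differ in FOXP3 level, as in those without. Il2ra also stepped between higher levels there, from 107.1 to 1150 CPM, against 9.06 to 288.5 without FOXP3. The log2 fold change of mature Tregs against FOXP3lo progenitors exceeded that of CD25+ progenitors against conventional cells by 0.62 (adjusted p = 0.02). The same difference for Tcf3 was -0.48 (adjusted p = 0.00183). Both were drawn out because a test of the difference itself passed the threshold; Id3 lost the call without any 1 of 5 libraries, and both lost it with all 15 libraries fitted.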

How the results depend on the processing

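Of the log2 fold changes of the 4 members, 406 kept direction and side of the threshold under other settings, 16 lost the call, 3 gained it and 3 changed sign. When 1 library was left out, 294 kept both, 16 lost the call, 11 gained it and 15 changed sign. The replicate block left 3, 2, 3, 3, 3 and 1 members called in the 6 pairs of Bst2-negative gates, 2 in the interaction and 2 in each Bst2+ comparison, and it changed no member's call. Same-numbered libraries of different gates had deviations that correlated at -0.02 to 0.05 over 30 pairs, none above 0.1. The 60 pairs with other numbers ran from -0.065 to 0.033. The means were 0.011 for the same number and -0.0056 for other numbers. Of 15 libraries, 13 correlated best with their own number, a hint from the data only; the labels do not tie a number to an animal.

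With all 15 libraries fitted, 1 member was called in FOXP3lo progenitors against conventional cells, 1 in mature Tregs against conventional cells and 0 in the interaction. Without a filter on low counts, 1 was called in FOXP3lo progenitors against conventional cells. With a voom weight for each gate, 1 was called in Bst2+ cells against conventional cells and 1 against CD25+ progenitors. With only the compared gates fitted, the Bst2+ gate had 0 called against conventional cells and 1 each against CD25+ progenitors, FOXP3lo progenitors and mature Tregs. Leaving out 1 library gave 1 to 2 called members in FOXP3lo progenitors against conventional cells, 1 to 2 in mature Tregs against FOXP3lo progenitors, 1 to 3 in the interaction and 0 to 2 in Bst2+ against conventional cells. The cause was not tested.

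The values that changed sign were near 0 and not called. For Tcf3 in mature Tregs against conventional cells the log2 fold change was 0.00434 with RLE factors, 0.00147 with DESeq2 and -0.0553 to 0.0527 without 1 library. Tcf3 without 1 library ran from -0.0384 to 0.0787 in FOXP3lo progenitors against conventional cells and from -0.0868 to 0.0355 in mature Tregs against FOXP3lo progenitors. In Bst2+ cells Tcf3 ran from -0.117 to 0.0322 against conventional cells, -0.148 to 0.000381 against FOXP3lo progenitors and -0.114 to 0.0348 against mature Tregs. For Tcf12 the interaction was 0.00959 with RLE factors and -0.0738 to 0.0564 without 1 library, and Bst2+ against mature Tregs ran from -0.0789 to 0.201.

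Over all genes, the fit of 15 libraries called 1876, 1401 and 1957 genes in CD25+ progenitors, FOXP3lo progenitors and mature Tregs against conventional cells, where that of 12 called 4531, 3928 and 4758. It called 3073 against 6193 between the progenitors, 2097 against 5113 and 760 against 2920 in mature Tregs against CD25+ and FOXP3lo progenitors, and 377 against 1698 in the interaction. Bst2+ counts fell from 4675, 3881, 6132 and 5269 to 1511, 952, 2948 and 1965 with only the compared gates fitted, and to 2117, 1524, 3294 and 2454 with the gate weights; against the mean of 3 gates 6289 became 2226. Without CD25+ replicate 42 or 43, Bst2+ against CD25+ progenitors had 2536 or 2531. Id2 in mature Tregs, at 64 to 99 counts per library, is the member level that depth limits most.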
